A study of Mus musculus with 3 samples.

Results

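The Kruppel-like factor genes Klf2, Klf3, Klf6 and Klf13 and the egress receptor genes S1pr1 and S1pr4 were followed in alloantigen-specific CD4+ T cells of a transplanted heart and of the spleen. They were matched by gene symbol and are 6 of the 28692 named genes in the matrices. The cells were TEa cells, CD4+ T cells with a transgenic T cell receptor that recognises an I-E alpha alloantigen of BALB/c mice. Congenically marked naive TEa cells of wild-type genotype were transferred into C57BL/6 mice, which then received a BALB/c heart, and were sorted on day 7 out of heart allografts and spleens. There was 1 droplet-based 3' single-cell RNA library for each tissue, with 3984 T cells kept in the heart allograft library and 6569 in the spleen library. A further library, of Ldha-/- TEa cells from the spleen, was not analysed here by gene, because its rows were not paired with gene names. By their transgene TEa cells share a single receptor specificity, which was not checked for every kept cell. A UMI of the receptor segment genes Trbv19 or Trav14 was found in 2379 heart and 2882 spleen cells. How many animals were pooled is not given in the sources used here. With 1 library per tissue no test could be made, and the tissue cannot be told apart from the library.

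Kruppel-like factors are zinc-finger transcription factors that bind CACCC-like and GC-rich DNA. In naive and resting T cells KLF2 maintains quiescence and drives S1pr1, and T cell receptor signalling lowers it. S1PR1 is a receptor for sphingosine 1-phosphate (S1P), a lipid that is abundant in blood and lymph, and it guides T cells out of lymphoid organs. CD69 binds S1PR1 and takes it off the cell surface. S1PR4 is a related receptor of lymphocytes. KLF3 is mainly a repressor that works with C-terminal binding proteins, KLF6 is an immediate early factor of many cell types, and KLF13 was described as an activator of CCL5 in human T cells.

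The windows upstream of the start sites of Klf2, Klf3 and Klf6 are shown because these 3 members had the largest differences between the tissues. They come from windows of 250 bases before the RefSeq start sites (GRCm38.p6), on the plus strand, 5′ to 3′, and are shown up to the base before the GENCODE start of the gene, with KLF boxes (CACCC, or GGGTG on the other strand) in capitals. The RefSeq start lies past the earliest GENCODE start, so that 29 bases of the Klf2 window, 133 of the Klf3 window and 7 of the Klf6 window fall inside the GENCODE gene and are not shown. The stretches shown are chr8:72318812-72319032, chr5:64803271-64803387 and chr13:5861239-5861481.
Klf2: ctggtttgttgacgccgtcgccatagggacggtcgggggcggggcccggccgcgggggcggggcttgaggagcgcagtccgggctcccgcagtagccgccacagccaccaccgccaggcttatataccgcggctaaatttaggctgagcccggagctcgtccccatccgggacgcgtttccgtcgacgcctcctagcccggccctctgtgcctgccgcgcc
Klf3: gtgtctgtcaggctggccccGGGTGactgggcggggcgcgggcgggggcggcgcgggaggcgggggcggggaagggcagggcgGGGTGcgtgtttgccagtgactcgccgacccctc
Klf6: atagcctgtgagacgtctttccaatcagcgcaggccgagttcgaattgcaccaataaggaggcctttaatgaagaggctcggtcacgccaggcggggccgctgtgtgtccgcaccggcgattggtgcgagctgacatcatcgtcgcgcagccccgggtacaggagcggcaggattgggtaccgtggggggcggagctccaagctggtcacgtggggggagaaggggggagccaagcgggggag
The whole Klf2 window holds 1 KLF box, at -19 relative to the RefSeq start and inside the GENCODE gene. The whole Klf3 window holds 5 KLF boxes, of which 2 lie in the stretch shown, and the Klf6 window none. The KLF box was found in 17087 of 32851 windows of the same length (52%). The FOXO box GTAAACA, on either strand, was in none of the 5 members' windows and in 3.17% of all windows. Klf13 and S1pr4 had 1 KLF box each, and 5 of the 6 members matched the table, all but S1pr1. The whole windows were rich in G and C, at 71.2% for Klf2, 78.4% for Klf3 and 64.8% for Klf6, against a median of 52.4% over all windows. A match describes these letters only.

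The kept cells held a median of 8234.5 UMIs (unique molecular identifiers, counted molecules) and 2150 genes in the heart library, against 7988 UMIs and 2184 genes in the spleen library. The kept cells summed to 42203172 UMIs in heart and 56239410 in spleen, so that a count of 0 allows 0.0711 CPM (UMIs of a gene scaled to a common library total) in heart and 0.0533 CPM in spleen. T cell markers together stood at 12017 CPM in heart cells, against 11915 CPM in spleen cells. Of the markers of other cells, B cell genes summed to 44.1 CPM in heart cells, against 177 CPM in spleen cells, erythroid genes to 0.0711 CPM in heart cells, against 204 CPM in spleen cells, and monocyte and macrophage genes to 330 CPM in heart, mostly Ctss, and 209 CPM in spleen. Cycling cells were 12.8% of heart cells and 2.92% of spleen cells, and the heart and spleen T cells shared 6 barcodes. In heart the B cell genes Ms4a1 and Pax5 and the macrophage gene Adgre1 were at 0. The part of these differences in the results below was not tested.

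Across the tissues, Klf2, Klf3 and S1pr1 were at least 2-fold lower in heart TEa cells and Klf6 was at least 2-fold higher, while Klf13 and S1pr4 lay within 2-fold. All 6 members passed the floor of 10 CPM in either library, and among the 6953 genes that passed it 8.50% were at least 2-fold lower and 9.08% at least 2-fold higher in heart. At a floor of 50 CPM the shares over 2705 genes were 4.88% lower and 11.7% higher. A log2 ratio compares CPM + 1 of heart cells with CPM + 1 of spleen cells, which understates differences of low genes. The median log2 ratio was -0.73 for the 6 members and -0.11 for all genes tested. CPM carry 95% Poisson intervals and shares of cells carry Clopper-Pearson binomial intervals, both exact and both for counting error only. Shares of cells with a UMI were taken after each cell was thinned to 1000 UMIs, the minimum for a kept cell.

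**Figure D1:**
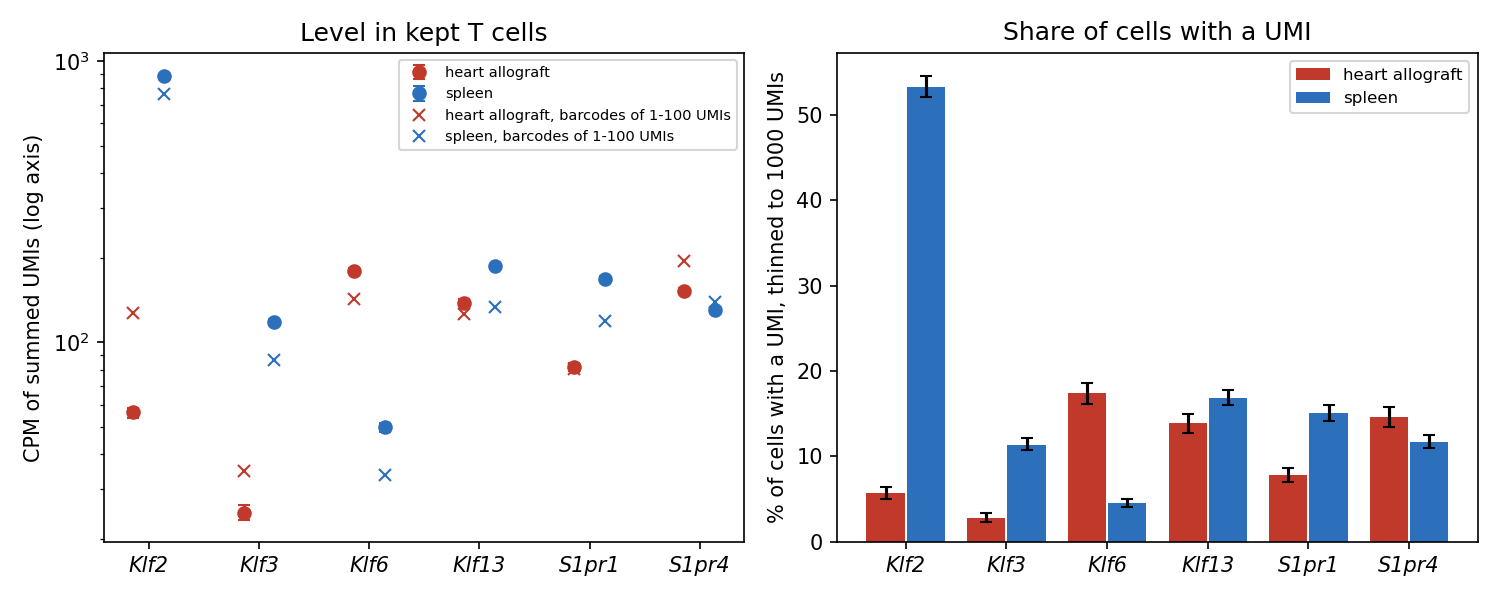
Level of each member in CPM of summed UMIs on a log axis (left) and share of T cells with a UMI after thinning to 1000 UMIs in percent (right, bars), heart allograft left of spleen, with exact 95% intervals for counting error. Crosses are barcodes of 1 to 100 UMIs. Klf2 stands at 56.3 CPM in heart cells, against 883 CPM in spleen cells, and Klf6 at 179.6 CPM in heart cells, against 49.9 CPM in spleen cells.

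Klf2 (chromosome 8, 72319033 to 72321656, plus strand, in the mouse build GRCm38) had 56.3 CPM (54.0 to 58.6) in heart TEa cells, against 883 CPM (875 to 890.3) in spleen TEa cells. The spleen level was 15.7-fold that of heart (15.1 to 16.4), a log2 ratio of -3.95, and only 8 of the 6953 genes had a lower ratio. A thinned UMI was present in 5.67% of heart cells (4.97 to 6.44) and in 53.3% of spleen cells (52.1 to 54.5). Without thinning the shares were 20% in heart and 90.5% in spleen. Cells with a UMI averaged 2.98 Klf2 UMIs in heart and 8.35 in spleen. Both the share of cells and the count per positive cell were lower in heart. Barcodes of 1 to 100 UMIs, taken as a measure of free RNA, gave 127 CPM (110.2 to 146) in the heart library, against 765 CPM (733 to 797) in the spleen library, so the average over heart cells lay below the free RNA of its own library. In the 88 heart barcodes removed as monocytes or macrophages, with a median of 24632.5 UMIs, 9.09% (4.01 to 17.1) had a thinned Klf2 UMI. The removed cluster, with 14 spleen barcodes besides, held 6424.32 CPM of T cell markers, so it does not give a level free of T cell RNA. In CPM, the average level of heart T cells was not above the free RNA of its library. CPM give the make-up of each pool, and how many UMIs of a cell came from free RNA was not measured. The 664794 heart barcodes of 1 to 100 UMIs held 1606259 UMIs in all.

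The heart Klf2 counts were uneven. In heart, 147 cells with at least 5 UMIs (3.69% of cells) held 50.7% of all Klf2 UMIs, and 3187 cells had none. In spleen, 4243 cells with at least 5 UMIs (64.6%) held 91.3%. Of the 147 heart cells, 77 fell in cluster 3, 63 in cluster 5 and 7 in cluster 1. A cut of 5 UMIs depends on depth, so these counts do not rank the clusters. Cells of both libraries had a median of 7144 UMIs in cluster 3, 18570 in cluster 5 and 8048.5 in cluster 1.

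Klf3 (chromosome 5, 64803388 to 64832901, plus strand) had 24.8 CPM (23.4 to 26.4) in heart cells, against 118 CPM (115 to 121) in spleen cells, 4.74-fold (4.44 to 5.06) higher in spleen with a log2 ratio of -2.20. Thinned shares were 2.81% of heart cells (2.32 to 3.37) and 11.4% of spleen cells (10.7 to 12.2), and unthinned shares 16.4% in heart and 52.8% in spleen. Free-RNA barcodes gave 34.9 CPM in the heart library, against 86.7 CPM in the spleen library. In CPM, the heart average again did not exceed its free RNA. A lower ratio was found for 52 of the 6953 genes.

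S1pr1 (chromosome 3, 115710433 to 115715072, minus strand), the main egress receptor, was at 81.7 CPM (79.0 to 84.4) in heart cells, against 168 CPM (165 to 172) in spleen cells. Its spleen level was 2.06-fold that of heart (1.98 to 2.14), a log2 ratio of -1.04, with an interval that reaches below 2-fold. It lay within 2-fold when cells were thinned (-0.90) and in cycling cells (-0.52). Thinned shares were 7.83% of heart cells (7.02 to 8.71) and 15.1% of spleen cells (14.2 to 16), and unthinned shares 40.6% in heart and 67.4% in spleen. Free-RNA barcodes had 80.3 CPM (67.1 to 95.4) in the heart library, against 119 CPM in the spleen library. In CPM, the heart average thus lay inside the interval of its free RNA, which does not give the free RNA held by each cell. The S1pr1 difference was much smaller than that of Klf2, at a log2 ratio of -1.04 against -3.95.

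S1pr4 (chromosome 10, 81497747 to 81500132, minus strand) had 152 CPM (149 to 156) in heart cells, against 129.9 CPM (127 to 133) in spleen cells, a ratio of 1.17 (1.13 to 1.21). Thinned shares were 14.6% of heart cells (13.5 to 15.8) and 11.7% of spleen cells (11 to 12.5), and unthinned shares 71.0% in heart and 59.8% in spleen. Free-RNA barcodes gave 195 CPM in the heart library, against 139 CPM (126 to 154) in the spleen library. In CPM, S1pr4 thus did not exceed the free RNA of either library, which does not give the free RNA held by each cell. S1pr1 thus lay lower in heart cells and S1pr4 slightly higher, but S1pr4 had a log2 ratio of -0.48 among cycling cells.

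Klf6 (chromosome 13, 5861482 to 5870394, plus strand) was the 1 member at least 2-fold higher in heart, at 179.6 CPM (176 to 184) against 49.9 CPM (48.0 to 51.8) in spleen. The ratio was 3.60 (3.45 to 3.76), a log2 ratio of 1.83, above that of 6697 of the 6953 genes. Thinned shares were 17.4% of heart cells (16.2 to 18.6) and 4.55% of spleen cells (4.06 to 5.08), and unthinned shares 68.4% in heart and 29.2% in spleen. Single cells held up to 57 Klf6 UMIs in heart and up to 8 in spleen. In heart, 10.6% of cells had at least 5 UMIs and held 40.5% of the Klf6 UMIs. Free-RNA barcodes gave 143 CPM in the heart library, against 33.7 CPM in the spleen library. The heart barcodes removed as monocytes or macrophages, in a cluster that also held T cell markers, had a thinned Klf6 UMI in 35.2% (25.3 to 46.1), more than the T cells. Their part in the T cell level was not tested.

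Klf13 (chromosome 7, 63886351 to 63938915, minus strand) had 138 CPM (135 to 142) in heart cells, against 186 CPM (182 to 189) in spleen cells, a ratio of 0.743 (0.720 to 0.767). Thinned shares were 13.9% of heart cells (12.8 to 15) and 16.9% of spleen cells (16 to 17.8). Free RNA was alike in level in the libraries, at 126 CPM (109 to 144) in heart, against 133 CPM in spleen. In CPM, the heart average lay inside the interval of its free RNA. Ccl5, the chemokine gene, was at 515 CPM in heart cells, against 337 CPM in spleen cells, a log2 ratio of 0.61.

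Clusters made without any listed gene showed how the members varied within each tissue. Of 8 clusters, 1 held at least 50 cells of both libraries (cluster 5, the cycling cells), so the others were compared within their tissue only. Heart cells lay mainly in clusters 1 (2002 cells), 3 (1331 cells) and 5 (635 heart and 120 spleen cells). Cluster 1 was led by Cxcr6, Itgae, Fgl2 and Crem. Cluster 3 was led by Hspa1a, Hspa1b, Esm1 and Tgif1, with Gadd45b, Nr4a2, Ifng, Ppp1r15a, Junb and Fosb also among its leading genes. These include heat shock and AP-1 genes, and the part of handling in the member levels of cluster 3 was not tested. Spleen cells lay in cluster 0 (3098 cells, led by Dapl1 and Fam101b, with naive or stem-like T cell markers), cluster 2 (1807 cells, led by Wnt10a, Nrn1 and Cd200, with Tfh-like markers), cluster 4 (1035 cells, led by Ccl5, Ccr2 and Id2, with Th1-like markers), cluster 6 (333 cells, led by Egr2, Tnf and Egr1) and cluster 7 (175 cells, led by the interferon-induced genes Ifit3, Ifit1 and Rsad2). Cluster 1 carried markers of both Th1 and regulatory T cells, so it and clusters 3 and 6 are left without a cell type name.

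Klf2 was at 11.7 CPM (10.2 to 13.4) in heart cluster 1, 131 CPM (124 to 138) in heart cluster 3 and 58.3 CPM (54.3 to 62.6) in heart cluster 5. Thinned shares ran alongside, at 1.25%, 11.3% and 7.87% of cells. In spleen it was 1093 CPM in cluster 0, 526 CPM in cluster 2, 1034 CPM in cluster 4, 700.4 CPM in cluster 5, 544 CPM in cluster 6 and 923 CPM in cluster 7. Every heart cluster lay below every spleen cluster, and the lowest spleen cluster was 4.01-fold above the highest heart cluster. Between heart clusters 3 and 1 the fold was 11.2 for Klf2, 4.21 for Klf3 and 2.90 for S1pr1. The free RNA of the heart library, at 127 CPM, was near the level of cluster 3 and well above that of cluster 1. Klf2 was thus unevenly spread within the heart, and below every spleen cluster throughout.

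Klf3 ordered the heart clusters as cluster 3 at 60.6 CPM, cluster 1 at 14.4 CPM and cluster 5 at 11.3 CPM, and the spleen clusters between 69.2 CPM (cluster 6) and 143 CPM (cluster 0). The interval of heart cluster 3 (55.9 to 65.5) overlaps those of spleen cluster 6 (60.1 to 79.4) and spleen cluster 5 (63.0 to 85.8). S1pr1 was 149 CPM in heart cluster 3, a level inside the spleen range, against 51.4 CPM in cluster 1 and 70.0 CPM in cluster 5. Its spleen range ran between 99.1 CPM in cluster 6 and 221 CPM in cluster 0, and clusters 5 and 6 did not differ beyond their intervals. Klf6 was 244 CPM in heart cluster 3, 176 CPM in cluster 1 and 135 CPM in cluster 5, all above the highest spleen cluster (79.2 CPM, cluster 4). In the spleen Klf6 was lowest in cluster 2, at 26.9 CPM.

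Klf13 ran between 115 CPM and 155 CPM over the heart clusters and between 134 CPM and 215 CPM over the spleen clusters. Its highest over its lowest spleen cluster was 1.60 (1.42 to 1.80), and 2.27 with finer clusters (Leiden resolution 1.0). S1pr4 had another order, at 180.0 CPM in heart cluster 1, 152 CPM in cluster 3 and 116 CPM in cluster 5. In spleen S1pr4 was highest in cluster 4, at 209.7 CPM, and lowest in cluster 6, at 58.0 CPM. Cluster 4 was also the spleen cluster with the most Klf6. Erythroid genes summed to 686 CPM in cluster 2 and to at most 62.2 CPM in the other clusters. Their part in the member levels of cluster 2, among them its low Klf2 (526 CPM), Klf6 and S1pr4 levels, was not tested.

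**Figure D2:**
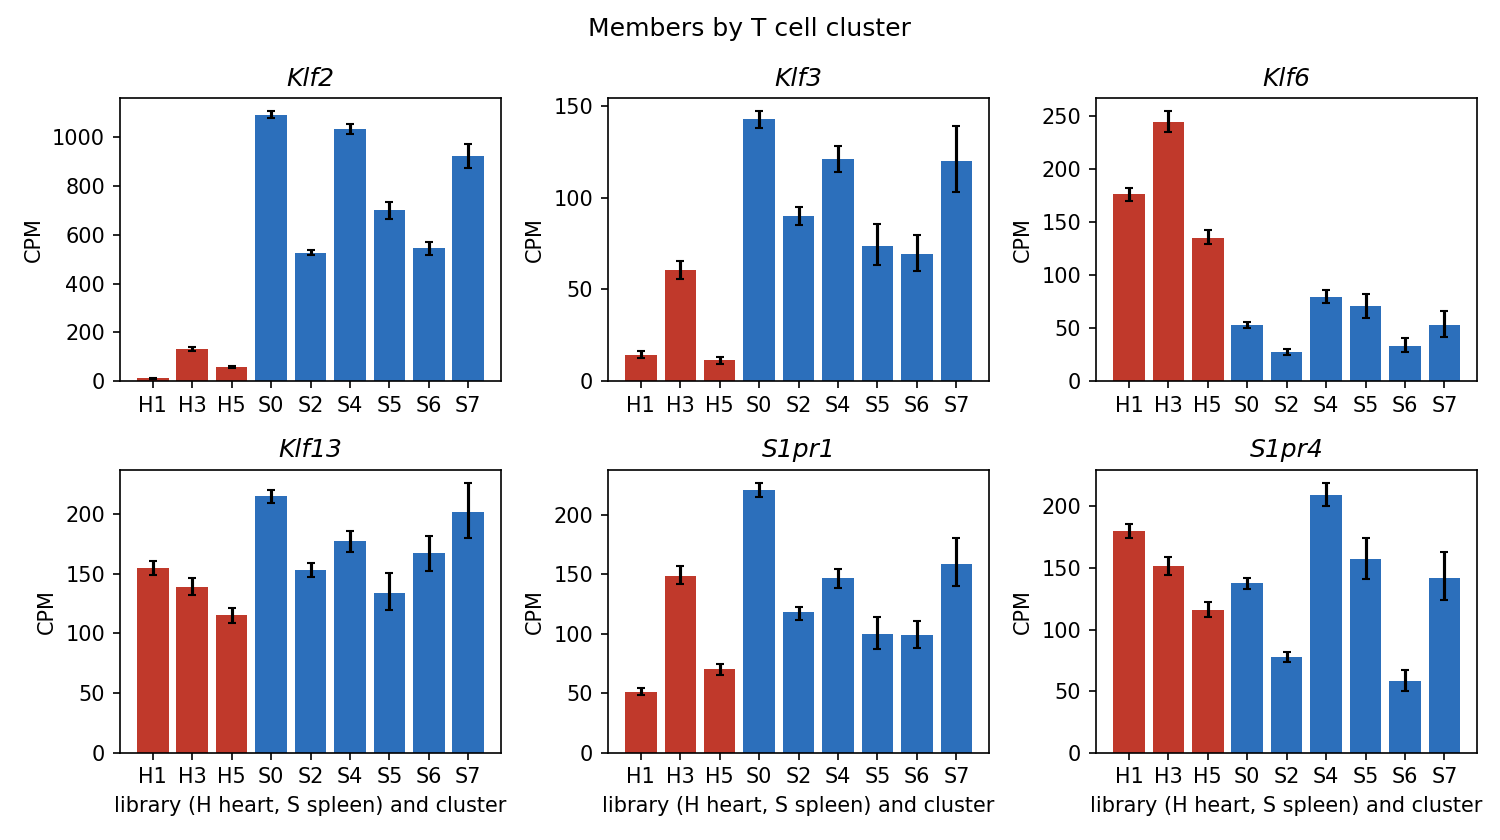
Bars give the CPM of each member in every library-by-cluster sum of at least 50 cells, heart clusters (H) left of spleen clusters (S), with exact 95% Poisson intervals. For Klf2 all heart clusters lie below all spleen clusters and for Klf6 above them. For Klf3 they lie below in level, but the interval of heart cluster 3 overlaps those of spleen clusters 5 and 6, and S1pr1, Klf13 and S1pr4 overlap in level.

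Within cluster 5, the only one that could be compared across tissues, the log2 ratio was -3.56 for Klf2, -2.61 for Klf3, 0.94 for Klf6, -0.22 for Klf13, -0.50 for S1pr1 and -0.43 for S1pr4. Klf2 and Klf3 were again over 2-fold lower in heart, and S1pr4 had the opposite sign to its ratio over all cells. Klf6 and S1pr1 lay within 2-fold, but the Klf6 ratio of 1.93 had an interval (1.64 to 2.28) that reaches above 2-fold. This restriction was chosen after the data were seen.

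Among single heart cells, Klf2, Klf3 and S1pr1 were found together more often than the product of their shares. A thinned Klf3 UMI was in 11.1% of heart cells with a Klf2 UMI and in 2.32% of those without, and 25 cells had both against 6.35 from the product, a ratio of 3.93. For Klf2 and S1pr1 the ratio was 2.15, with S1pr1 in 16.8% of cells with Klf2 and 7.29% of those without. For Klf3 and S1pr1 it was 1.71. In spleen the ratios of all 15 pairs lay between 1.03 and 1.33, where Klf2 was in most cells. Inside heart cluster 3, Klf3 was in 15.2% (9.91 to 22.0) of 151 cells with Klf2 and in 5.17% (3.98 to 6.59) of the 1180 without, and S1pr1 in 16.6% (11 to 23.5) and 12.4% (10.5 to 14.4), which overlap. In heart cluster 1, Klf3 was in 0 of 25 cells with Klf2 (0 to 13.7%) and in 1.11% (0.699 to 1.68) of those without, and S1pr1 in 12.0% (2.55 to 31.2) and 4.86% (3.95 to 5.90). In heart cluster 5, Klf3 was in 4.0% (0.488 to 13.7) of 50 cells with Klf2 and 0.684% (0.187 to 1.74) without, and S1pr1 in 20% (10.0 to 33.7) and 5.47% (3.77 to 7.63). These are descriptions, since cells of 1 library share their handling.

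Heart cells with a thinned Tcf7 UMI (283 cells), a gene of naive and stem-like T cells, had Klf2 in 12.4% (8.77 to 16.8), against 5.16% (4.47 to 5.92) of those without. In spleen the Tcf7 split for Klf2 was 53.7% against 53.1%. Heart cells with Tcf7 had Klf3 in 5.30% (3.00 to 8.59), against 2.62% (2.13 to 3.19), and S1pr1 in 11.7% (8.16 to 16), against 7.54% (6.71 to 8.44), with intervals that overlap. Heart cells with Cxcr6 (997 cells), a receptor of tissue T cells, had Klf2 in 2.61% (1.71 to 3.8), against 6.70% (5.83 to 7.65) without it, while in spleen the shares were 53.4% and 53.3%. Heart cells with Itgae (256 cells) had Klf3 in 0.781% (0.0948 to 2.79), against 2.95% (2.43 to 3.55). Heart cells with Cd69 (451 cells) had S1pr1 in 5.32% (3.44 to 7.81), against 8.15% (7.27 to 9.10), and spleen cells in 15.2% and 15.1%. The intervals of both of these heart splits overlap. With Il7r, Klf2 was in 6.68% of heart cells with it and 5.49% without, and in 62.6% of spleen cells with it and 51.9% without. Spleen cells with Ccl5 had Klf6 in 9.50% (6.87 to 12.7), against 4.21% (3.72 to 4.75), and S1pr4 in 17.3% (13.8 to 21.3), against 11.4% (10.6 to 12.2). In heart the Ccl5 split was 16.9% against 17.5% for Klf6 and 16% against 14.3% for S1pr4.

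**Figure D3:**
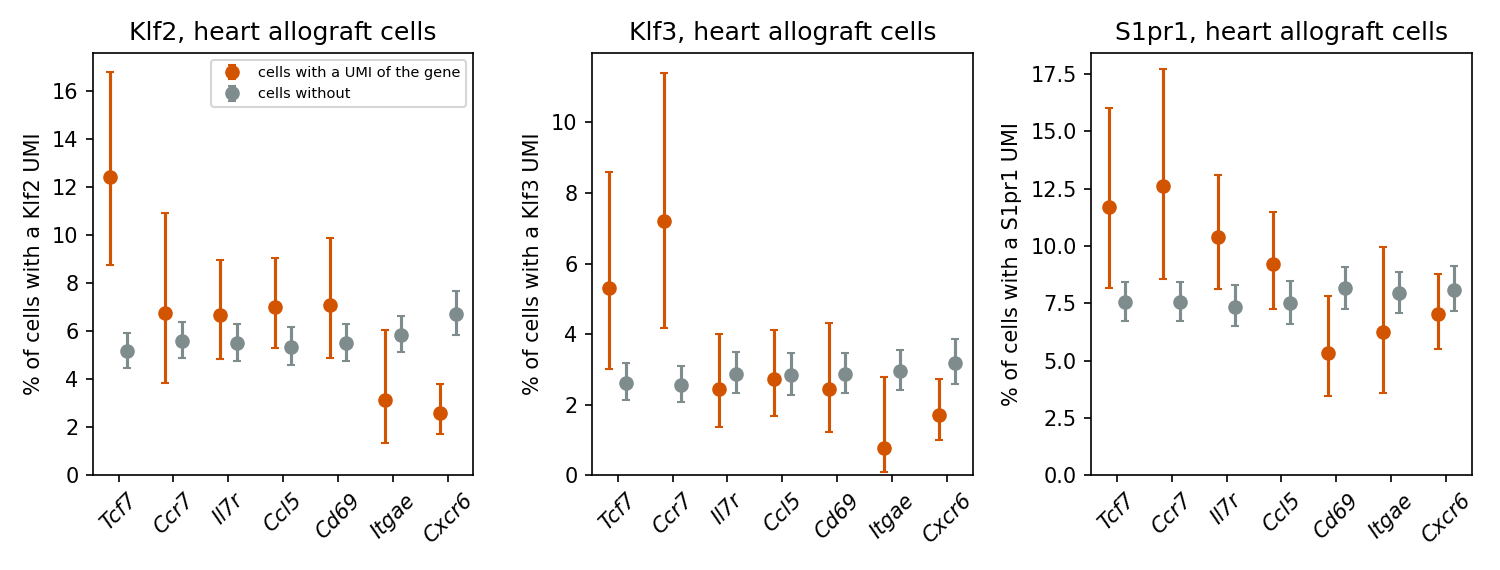
Share of heart allograft cells with a thinned UMI of Klf2, Klf3 or S1pr1, in percent, among cells with (orange) and without (grey) a UMI of the gene on the x axis, with exact 95% binomial intervals. Heart cells with Tcf7 show Klf2 in 12.4%, against 5.16% of those without.

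The genes whose levels ran most like a member over the 9 library-by-cluster sums (Pearson r of log2 CPM + 1, among 2599 genes) were, for Klf2, Pdlim1 (0.957), Rcsd1 (0.943) and Fam65b (0.938). For Klf3 they were Znrf2 (0.944), Apbb1ip (0.938) and Tnrc6c (0.937), and for Klf6 Fam107b (0.994), Rassf1 (0.986) and Rora (0.978). For Klf13 they were Kif21b (0.957), Smek2 (0.95) and Mat2b (0.948), for S1pr4 Arl4c (0.932), Prex1 (0.901) and Smap2 (0.896), and for S1pr1 Crlf3 (0.887), Klf3 (0.883) and Fam105a (0.883). Between members r was 0.920 for Klf2 with Klf3 and 0.804 for Klf2 with S1pr1. It was -0.709 for Klf2 with Klf6 and -0.161 for Klf2 with S1pr4. The 9 sums come from 2 libraries, so they are not independent.

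Of the 13 other Klf family genes, 3 passed the floor, with 1 higher and 1 lower by at least 2-fold and a median log2 ratio of 0.56. For this and the lists below, 9.08% of all genes tested were at least 2-fold higher in heart and 8.50% lower. Klf10, a TGF-beta-induced factor, was at 14.1 CPM in heart cells, against 6.17 CPM in spleen cells. Klf7 was at 7.84 CPM in heart cells, against 22.9 CPM in spleen cells. Klf4, under the floor and picked after its values were seen, was at 4.76 CPM in heart cells, against 0.160 CPM in spleen cells. The other S1P receptors were all under the floor, with S1pr2 at 5.52 CPM in heart cells, against 4.37 CPM in spleen cells and S1pr5, a receptor of natural killer cells, at 0 in heart and 0.142 CPM in spleen.

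Of 12 genes of S1P metabolism and transport, 5 passed the floor and none was 2-fold apart, with a median of -0.12. Sgpp1, an S1P phosphatase, was at 11.8 CPM in heart cells, against 18.2 CPM in spleen cells. Among 12 genes of S1P receptor signalling, 10 passed the floor, 1 was higher, 0 were lower and the median was 0.13. Gna13, a G protein alpha subunit that couples receptors inhibiting migration, was at 247 CPM in heart cells, against 57.8 CPM in spleen cells. Dock2, the Rac activator of lymphocyte migration, was at 149.8 CPM in heart cells, against 218 CPM in spleen cells.

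Genes that oppose egress or hold cells in tissue had the largest shift of the lists, with a median of 4.16. Of these 8 genes 6 were higher and 1 was lower, against 9.08% and 8.50% of all genes tested. The lists were chosen with earlier results of these data known. Rgs1, Rgs2 and Rgs16, which encode regulators of G protein signalling, were at 1522, 134 and 216 CPM in heart, against 24.0, 4.85 and 1.48 CPM in spleen. Itgae, which encodes the epithelial-binding integrin CD103, was at 58.6 CPM in heart cells, against 1.08 CPM in spleen cells, and Cxcr4 at 60.8 CPM in heart cells, against 3.41 CPM in spleen cells. Cd69, whose product removes S1PR1 from the surface, was at 122 CPM in heart cells, against 57.9 CPM in spleen cells. Ccr7 was at 68.8 CPM in heart cells, against 109 CPM in spleen cells, within 2-fold, and the follicle receptor Cxcr5, the 1 lower gene, at 3.65 CPM in heart cells, against 35.6 CPM in spleen cells.

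Of 12 homing genes, 4 were higher and 2 lower, with a median of -0.20. Cxcr6 was at 333 CPM in heart cells, against 28.6 CPM in spleen cells, Selplg at 589.8 CPM in heart cells, against 239 CPM in spleen cells, and Itgb7 at 237 CPM in heart cells, against 297 CPM in spleen cells.

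Of 15 genes upstream of Klf2, 11 passed the floor, 1 was higher and 0 lower, with a median of -0.06. Foxo1, which encodes an activator of Klf2, was at 59.1 CPM in heart cells, against 71.4 CPM in spleen cells. These are RNA levels, and the part of FOXO1 in the Klf2 difference was not tested. Mef2d was at 79.0 CPM in heart cells, against 25.7 CPM in spleen cells. The FOXO1 target list, which holds Klf2 and S1pr1 themselves, had 0 of 12 higher and 6 lower, with a median of -1.02. Among all genes tested 9.08% were higher and 8.50% lower, with a median of -0.11. Tcf7 was at 78.0 CPM in heart cells, against 439 CPM in spleen cells and Lef1 at 44.4 CPM in heart cells, against 152 CPM in spleen cells, while Il7r was at 174 CPM in heart cells, against 148 CPM in spleen cells.

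Among KLF3 corepressors and targets 3 of 6 passed the floor and 2 were higher. Lgals3, a gene that KLF3 represses, was at 277 CPM in heart cells, against 48.2 CPM in spleen cells, Fam132a at 14.7 CPM in heart cells, against 5.01 CPM in spleen cells, and the corepressor Ctbp1 at 81.6 CPM in heart cells, against 81.0 CPM in spleen cells. Lgals3 is also a gene of macrophages, whose markers were higher in the heart library (330 against 209 CPM in spleen), and their part was not tested. Of 8 quiescence genes 1 was higher and 1 lower. Tob1 was at 32.2 CPM in heart cells, against 15 CPM in spleen cells, and Pik3ip1, which restrains PI3K, at 6.18 CPM in heart cells, against 45.3 CPM in spleen cells.

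**Figure D4:**
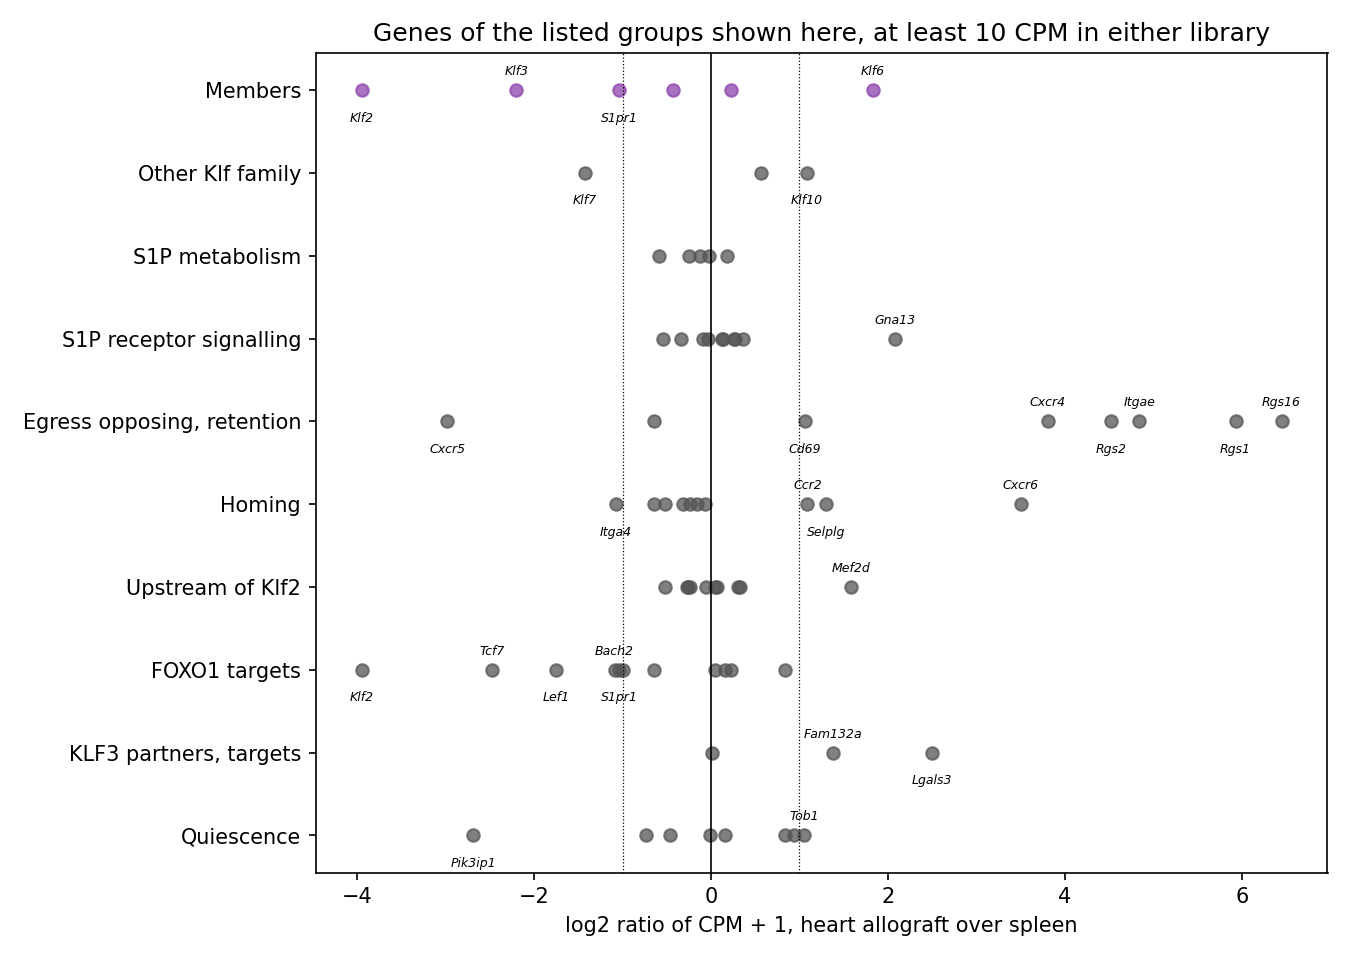
Log2 ratio of CPM + 1 in heart allograft over spleen for the listed genes reported here with at least 10 CPM in either library, 1 point a gene, with dotted lines at 2-fold. Klf2 (-3.95) lies far to the left and Rgs16 (6.45) and Rgs1 (5.93) far to the right.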

How the data were processed

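Single-cell 3' RNA libraries of TEa cells were used from 1 heart allograft sample and 1 spleen sample. Each deposited matrix is a raw UMI count table, not normalized by the authors, and was written by Cell Ranger 3.0.2 per the file headers. The mm10 build, Seurat 4.0.0 and Cell Ranger 7.0.0 are listed in the submitters' processing notes. The labels' protocol speaks of a nuclei suspension although cells were sorted, and which it was is not given otherwise. The Ldha-/- matrix (Cell Ranger 7.0.1) was not used by gene.

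Barcodes were kept with at least 1000 UMIs, 500 genes and at most 10% mitochondrial UMIs (4074 in heart, 6583 in spleen). Scrublet (scanpy 1.11.5) marked 2 heart and 0 spleen barcodes, too few for a working caller, so doublets may be present. Clustering (2000 variable genes, 30 components, 15 neighbours, Leiden at 0.6 with leidenalg 0.10.2) removed 1 monocyte or macrophage cluster, 88 barcodes in heart and 14 in spleen. T cells were clustered again without any listed gene. Positions are those of GENCODE M21 on GRCm38. CPM scale summed UMIs of kept cells. Scripts were tested on simulated data. UMIs remove amplification copies, but intervals cover counting error only.

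The members and lists were chosen with earlier results of these data known. All members are named, with at most 4 genes of each other list by size of ratio, a few set by name, and 3 genes most like each member. Klf4, Cxcr5 and Ms4a1, Pax5, Ctss and Adgre1 were named after their values were seen. Some genes of the lists are counted but not reported here by name.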

Additional observations from a re-analysis of the deposited data

How the results depend on the processing

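No paired analysis was possible because each tissue has 1 library and the replicate numbers are only names. Log2 ratios, heart over spleen, are given for Klf2, Klf3, Klf6, Klf13, S1pr1 and S1pr4 in that order. They were -3.73, -2.07, 2.09, -0.28, -0.90 and 0.35 with each cell thinned to 1000 UMIs, and -4.12, -2.38, 1.67, -0.59, -1.21 and 0.06 with totals without mitochondrial, ribosomal protein and Malat1 counts, which moved the median of all genes from -0.11 to -0.32. They were -3.83, -1.97, 2.01, -0.36, -0.97 and 0.34 as means of per-cell CPM, and -3.86, -2.06, 1.92, -0.37, -0.97 and 0.34 without cells over 3 times the median UMIs. Non-cycling cells gave -4.04, -2.0, 1.95, -0.37, -1.01 and 0.37, and cycling cells alone -3.50, -2.62, 1.09, -0.21, -0.52 and -0.48. Cells of cluster 5, chosen after seeing the data, gave -3.56, -2.61, 0.94, -0.22, -0.50 and -0.43. Cells with a TEa receptor segment gave -2.35 for Klf3. Cells without a UMI of B cell, erythroid or macrophage markers gave -4.09 for Klf2, 1.92 for Klf6, -0.37 for Klf13 and 0.32 for S1pr4. S1pr4 thus changed sign among cycling cells and in cluster 5. The count of members at least 2-fold lower was 3, and 2 (without S1pr1) with thinning, per-cell means, without large cells, at 5% mitochondrial UMIs, in cycling cells and in cluster 5. The count higher was 1, and 0 in cluster 5, where the interval of the Klf6 ratio (1.64 to 2.28) spanned 2-fold. Listed genes at least 2-fold lower numbered 11, and 7 at a floor of 50 CPM. Over all genes tested the share lower was 8.50%, and 4.88% at a floor of 50 CPM. Heart over spleen shares at 3000 UMIs were 0.142 for Klf2 (0.106 at 1000) and 3.02 for Klf6 (3.82 at 1000). The highest over the lowest spleen cluster was 2.08, 2.06, 2.95, 1.60, 2.23 and 3.61 in the same order; at resolution 0.3 it was 1.45 for Klf2, 1.63 for Klf3, 1.94 for Klf6, 1.77 for S1pr1 and 1.91 for S1pr4, and at 1.0 it was 3.57 for Klf2, 2.90 for Klf3, 3.42 for Klf6, 2.27 for Klf13 and 3.82 for S1pr1. The cause of these shifts was not tested. In CPM, the heart levels of Klf2, Klf3, Klf13, S1pr1 and S1pr4 and the spleen level of S1pr4 did not exceed the interval of their library's free RNA. How many UMIs of a cell came from free RNA was not measured, which limits what these levels can show.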
